A study of Mus musculus with 2 samples.

Results

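Nrf2, encoded by *Nfe2l2*, and the genes of its antioxidant response were examined in 2 mouse cell lines. The genes were taken by symbol: the transcription factor *Nfe2l2*, its inhibitor *Keap1*, and the thiol and quinone detoxification targets *Nqo1*, *Hmox1*, *Gclc*, *Gclm*, *Txnrd1*, *Srxn1*, *Prdx1* and *Slc7a11*, which makes 10 of the 14450 genes with a tag. All 10 were listed in both libraries. By the labels both lines come from male germ cells. GC-1spg was made from type B spermatogonia of a donor aged 10 days, transformed with pSV3-neo. The authors place the line between that stage and primary spermatocytes. GC-2spd (ts) was made from spermatocytes of a donor aged 6 weeks, transformed with the SV40 large T antigen. These names alone do not show that the lines differ in T antigen. Both grew in the same medium, DMEM with bicarbonate (1.5 g/L) and serum (10% FBS). No other agent and no mouse strain is named in the labels. Each line is represented by 1 digital gene expression (DGE) library, so differences could not be checked against replicates, and each test compares 2 libraries rather than 2 cell types. Where a pair of values is given without labels, that of GC-1spg comes first.

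In unstressed cells the Keap1 protein holds Nrf2 in the cytoplasm and directs it to degradation. Electrophiles and oxidants modify cysteines of Keap1, Nrf2 then accumulates, and with a small Maf partner it binds antioxidant response elements near genes for glutathione synthesis, thioredoxin reduction, quinone reduction and heme breakdown. In the testis these systems are known to limit oxidative damage to germ cells. Nrf2 activity is set largely at the level of the protein, which tags of messenger RNA do not measure.

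A DGE tag is CATG and the 17 bases that follow it in a transcript. Each transcript molecule gives in principle 1 tag, so that levels in TPM, tags per 1000000 clean tags, can be set side by side between genes without division by length. The libraries held 5072149 and 4726808 clean tags, and 1 copy was worth 0.197 and 0.212 TPM. Tags were summed for a gene only where they matched its sense strand and no other gene, with at most 1 mismatch to the mouse transcripts of GENCODE release M21. A gene was called when the two-sided Audic-Claverie test gave a false discovery rate (FDR) of at most 0.001 over all genes and the log2 ratio of TPM was at least 1 in size. Intervals are exact at 95% and cover counting error only. Since RNA was taken from whole cultures, fewer expressing cells and less RNA per cell cannot be told apart.

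The most abundant tag of each gene is shown, since the levels rest on these sequences; capitals mark the CATG site.
*Nfe2l2*: CATGttaaaatgctattggac
*Keap1*: CATGggaataaagaatggagt
*Nqo1*: CATGgcgcccagggggttggc
*Hmox1*: CATGgccactttgatatccgt
*Gclc*: CATGaaatgcactaatttttg
*Gclm*: CATGataacattgagatgtgt
*Txnrd1*: CATGtatttttattacaattt
*Srxn1*: CATGgtgaggacaccagcttt
*Prdx1*: CATGatgtggtgtgattccag
*Slc7a11* in GC-1spg: CATGcttcttttctataataa
*Slc7a11* in GC-2spd (ts): CATGtttcttttctataataa

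The 10 genes did not move as a group. *Gclc*, the catalytic subunit of glutamate cysteine ligase, was called higher in GC-2spd (ts), and *Nfe2l2* and *Nqo1*, the NAD(P)H quinone reductase, were called lower. This made 3 of 10 genes called, beside 19.5% of all 14450 genes. Of the 11298 genes with at least 10 tags over both libraries, as all of the 10 had, 24.9% were called. In single directions, 1 of 10 was called higher beside 11.7% of all genes, and 2 of 10 lower beside 7.84%. Shares by direction were not worked out for the genes with at least 10 tags, where they would be larger. *Gclm* and *Prdx1* passed the FDR with ratios below the threshold, and the other 5 genes did not pass the FDR. The share of all genes that passed the FDR whatever their ratio was not counted. The median log2 ratio of the 10 genes was 0.16, the same as the median of 0.16 over the 11373 genes listed in both libraries. TMM scaling, edgeR's trimmed mean of M values, shifted the log2 ratios by -0.17, and the share of higher genes among all calls was 59.8% by clean tags and 47.2% by TMM.

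**Figure D1:**
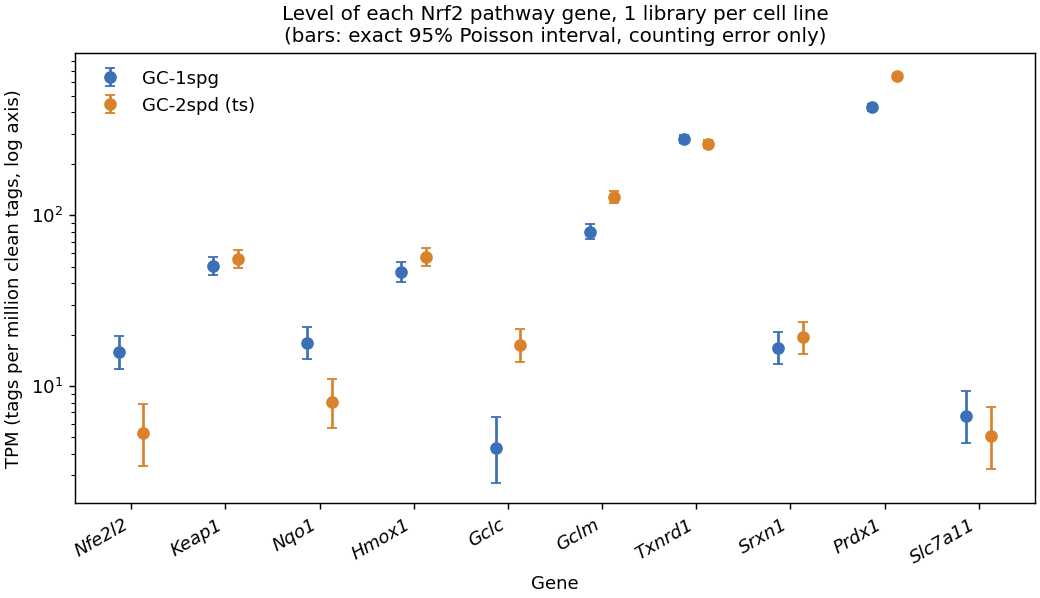
Level of each of the 10 genes as TPM on a log axis, with 1 point per library (blue, GC-1spg; orange, GC-2spd (ts)) and exact 95% Poisson bars. *Prdx1* and *Txnrd1* lie at 261.3 TPM or above in both libraries, and the intervals of *Nfe2l2*, *Nqo1*, *Gclc*, *Gclm* and *Prdx1* do not overlap between the lines. The share of all genes with separate intervals was not counted, so this is no result about the 10 genes as a group.

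**Figure D2:**
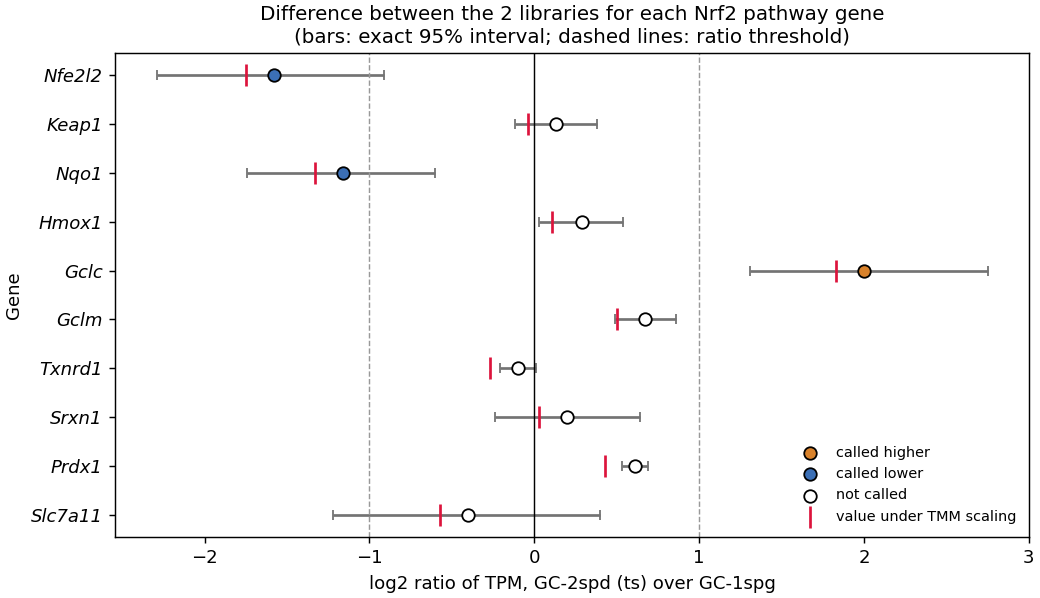
log2 ratio of TPM, GC-2spd (ts) over GC-1spg, for each gene with its exact 95% interval; the red tick is the value under TMM scaling and the dashed lines mark the ratio threshold. *Gclc* lies at 2.0, *Nqo1* at -1.16 and *Nfe2l2* at -1.58, while the other 7 genes lie between the dashed lines.

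*Prdx1* and *Txnrd1* together carried 74.8% and 75.6% of the summed tags of the 10 genes. In GC-1spg the order of levels was *Prdx1*, *Txnrd1*, *Gclm*, *Keap1*, *Hmox1*, *Nqo1*, *Srxn1*, *Nfe2l2*, *Slc7a11* and *Gclc*. Within that order the intervals of *Keap1* and *Hmox1* overlapped, as did those of *Nqo1*, *Srxn1* and *Nfe2l2*, and those of *Slc7a11* and *Gclc*. The place of *Nfe2l2* rests on a tag of a non-coding transcript. With protein coding transcripts only, *Nfe2l2* had 26 and 8 tags, fewer than the 38 and 26 of *Slc7a11*. In GC-2spd (ts) the 3 most abundant genes were *Prdx1*, *Txnrd1* and *Gclm* again. *Gclc*, the lowest of the 10 in GC-1spg, had an interval that overlapped that of *Srxn1* in GC-2spd (ts), and *Nqo1*, *Nfe2l2* and *Slc7a11* formed the lowest group there with overlapping intervals.

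Among the regulators, *Nfe2l2* had 80 and 25 tags, or 15.8 TPM (12.5 to 19.6) and 5.29 TPM (3.42 to 7.81). The level was lower in GC-2spd (ts), with a log2 ratio of -1.58 (-2.29 to -0.91) and an FDR of 1.46e-06 by the Audic-Claverie test. Most of these tags did not match the coding transcript. The most abundant tag, with 54 and 17 copies, lies at chr2:75691235-75691255 on the minus strand of GRCm38, in exon 2 of the short non-coding transcript Nfe2l2-202. The next, CATGttacgtgatgaggatgg, with 17 and 8 copies, lies in the coding sequence of exon 5 at chr2:75676061-75676081 and is the last CATG site of the messenger RNA. With protein coding transcripts only, *Nfe2l2* kept 26 and 8 tags, and its log2 ratio of -1.60 was no longer called, at an FDR of 8.31e-03 by the Audic-Claverie test.

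*Keap1*, the adaptor that brings Nrf2 to a ubiquitin ligase, had 257 and 262 tags, or 50.7 TPM (44.7 to 57.3) and 55.4 TPM (48.9 to 62.6). The intervals overlapped, and the log2 ratio of 0.13 (-0.12 to 0.38) was -0.04 under TMM. Its main tag, in the 3′ UTR of exon 5 at chr9:21230161-21230181 on the minus strand, held 245 and 240 of the copies. There were 3.21 (2.49 to 4.18) and 10.5 (6.94 to 16.5) *Keap1* tags per *Nfe2l2* tag, and 9.88 (6.59 to 15.4) and 32.8 (16.4 to 76.7) with protein coding transcripts only.

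*Nqo1*, which reduces quinones to hydroquinones, had 91 and 38 tags, or 17.9 TPM (14.5 to 22.0) and 8.04 TPM (5.69 to 11.03). The level in GC-2spd (ts) was lower, with a log2 ratio of -1.16 (-1.74 to -0.60) and an FDR of 5.93e-05 by the Audic-Claverie test. The tag in the 3′ UTR of exon 6, at chr8:107388354-107388374 on the minus strand, held 82 and 38 copies and gave -1.01 (-1.60 to -0.44) on its own. The other 9 copies in GC-1spg came from the coding sequence, CATGcagatcctggaaggatg, with 0 listed in GC-2spd (ts). With antisense tags added, *Nqo1* had 122 and 69 tags, a log2 ratio of -0.72, and was not called. The call was also lost in edgeR's exact test with an assumed biological coefficient of variation (BCV) between cultures of 0.1, at an FDR of 4.43e-03, where *Nfe2l2* and *Gclc* were still called.

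*Hmox1*, the inducible heme oxygenase, had 236 and 268 tags, or 46.5 TPM (40.8 to 52.9) and 56.7 TPM (50.1 to 63.9). The libraries were close, with a log2 ratio of 0.29 (0.03 to 0.54) that was not called and was 0.11 under TMM scaling. Its tag at chr8:75100358-75100378 on the plus strand, in the 3′ UTR of exon 5, held 233 and 262 copies.

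*Gclc* showed the largest difference among the 10 genes. It had 22 and 82 tags, or 4.34 TPM (2.72 to 6.57) and 17.4 TPM (13.8 to 21.5), a 4-fold higher level. Its log2 ratio was 2.0 (1.31 to 2.75) with an FDR of 1.76e-09 by the Audic-Claverie test. Its main tag, in the 3′ UTR of exon 16 at chr9:77794130-77794150 on the plus strand, had 17 and 66 copies, a log2 ratio of 2.06 (1.27 to 2.92). A second 3′ UTR tag, CATGtatatactaaagtattt, had 2 and 11 copies, so both sites had more copies in GC-2spd (ts). With a BCV of 0.2 in edgeR's exact test *Gclc* was not called, at an FDR of 2.58e-03.

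*Gclm*, the modifier subunit that raises the activity of Gclc, had 406 and 604 tags, or 80.0 TPM (72.5 to 88.2) and 127.8 TPM (117.8 to 138.4). The log2 ratio of 0.67 (0.49 to 0.86) was below the threshold, so *Gclm* was not called although its FDR was 1.72e-12 by the Audic-Claverie test. Per *Gclc* tag there were 18.5 (12.0 to 29.8) and 7.37 (5.84 to 9.39) *Gclm* tags, and these intervals did not overlap.

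The tags of *Gclm* were spread over 3 main sites, each in a 3′ UTR on the plus strand, and the sites differed in ratio. The main tag, at chr3:122266457-122266477 in exon 5 of transcript Gclm-203, had 151 and 261 copies, a log2 ratio of 0.89 (0.60 to 1.19). The tag CATGtgagttgtatgttttta, at chr3:122269852-122269872 in exon 7 of Gclm-201, had 81 and 174 copies, a log2 ratio of 1.20 (0.82 to 1.60). Further along the same exon, CATGtaataataaataaatct, at chr3:122270202-122270222, had 131 and 116 copies, a log2 ratio of -0.07 (-0.45 to 0.30). The last 2 intervals did not overlap, although both sites lie in the same transcript; these tags were set side by side after their values had been seen, and their difference was not tested. Another 5 tags of *Gclm* matched other genes too, up to 365 genes for 1 tag, and were left out with their 46245 and 30203 copies. Shared tags with exact matches were fewer for *Prdx1* (93 and 115 copies), *Slc7a11* (17 and 32) and *Keap1* (7 and 5), and the other 6 genes had none. Tags that matched several genes with 1 mismatch were also left out and are not in these counts.

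*Slc7a11*, the cystine importer that feeds glutathione synthesis, was among the lowest of the 10 genes. It had 34 and 24 tags, or 6.70 TPM (4.64 to 9.37) and 5.08 TPM (3.25 to 7.56), and the log2 ratio of -0.40 (-1.22 to 0.40) included 0. The CATG site nearest its 3′ end, at chr3:50364954-50364974 in the 3′ UTR of exon 12 on the minus strand, was listed as 2 different tags. GC-1spg held 23 copies of a variant with the substitution T5C, counted from 1 at the 5′ end of the tag with the reference base first, and 0 copies of the reference tag. GC-2spd (ts) held 10 copies of the reference tag and 0 of the variant. With exact matches only, the variant was lost and *Slc7a11* had 11 and 24 tags, so that the log2 ratio turned to 1.23 and was not called. Its partner *Slc3a2*, the heavy chain that carries Slc7a11 to the membrane, lay at 19.9 and 28.8 TPM and was not called.

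*Txnrd1*, the cytosolic thioredoxin reductase, had 1420 and 1235 tags, or 280.0 TPM (265.6 to 294.9) and 261.3 TPM (246.9 to 276.3). Its log2 ratio of -0.10 (-0.21 to 0.01) was not called and was -0.27 under TMM. The main tag lay 40 bases from the annotated 3′ end, at chr10:82897650-82897670 on the plus strand, and held 1267 and 1105 of the copies. *Prdx1*, a peroxiredoxin that removes hydrogen peroxide, had 2167 and 3072 tags, or 427.2 TPM (409.4 to 445.6) and 649.9 TPM (627.1 to 673.3). The ratio of TPM was 1.52, which is 0.61 on the log2 scale (0.53 to 0.69), with an FDR of 8.49e-50 by the Audic-Claverie test, but below the ratio threshold and not called. Its main tag, in the 3′ UTR of exon 6 of transcript Prdx1-204 at chr4:116699331-116699351 on the plus strand, held 2037 and 2948 copies. Counting only the CATG site nearest the 3′ end of a transcript left out this tag and gave 29 and 21 tags, a log2 ratio of -0.36. Of these, 12 and 13 were copies of a tag that the full count left out as shared with other genes. *Srxn1*, sulfiredoxin, which repairs over-oxidised peroxiredoxins, had 85 and 91 tags, or 16.8 TPM (13.4 to 20.7) and 19.3 TPM (15.5 to 23.6), a log2 ratio of 0.20 (-0.24 to 0.64) that was not called and was -0.05 with antisense tags added. *Srxn1* used several sites of its 3′ UTR, and the main one, at chr2:152111083-152111103 on the plus strand, had 35 and 53 copies.

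Whether the lines used different CATG sites within a gene was asked with Fisher's exact test on the copies of the main tag against all other tags, adjusted over the 10 genes. *Slc7a11* and *Prdx1* passed an adjusted p of 0.05. For *Slc7a11* the main tag held 67.65% of the GC-1spg copies (49.5 to 82.6) and 0 of 24 copies in GC-2spd (ts), where the interval reaches 14.2%, at an adjusted p of 3.99e-07 by Fisher's exact test. When variants were counted at the site of their reference tag, which was decided after seeing the data, that site held 67.65% and 41.7% and the adjusted p was 0.126 by Fisher's exact test. The shares for *Prdx1* were 94.0% (92.92 to 94.96) and 96.0% (95.2 to 96.6), with an adjusted p of 0.00669 by Fisher's exact test. *Srxn1* had 41.2% (30.6 to 52.4) and 58.2% (47.4 to 68.5), and *Gclm* 37.2% (32.5 to 42.1) and 43.2% (39.2 to 47.3), neither of which passed. *Nqo1*, *Hmox1*, *Keap1* and *Prdx1* drew at least 90.1% of their tags from a single site in both libraries.

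**Figure D3:**
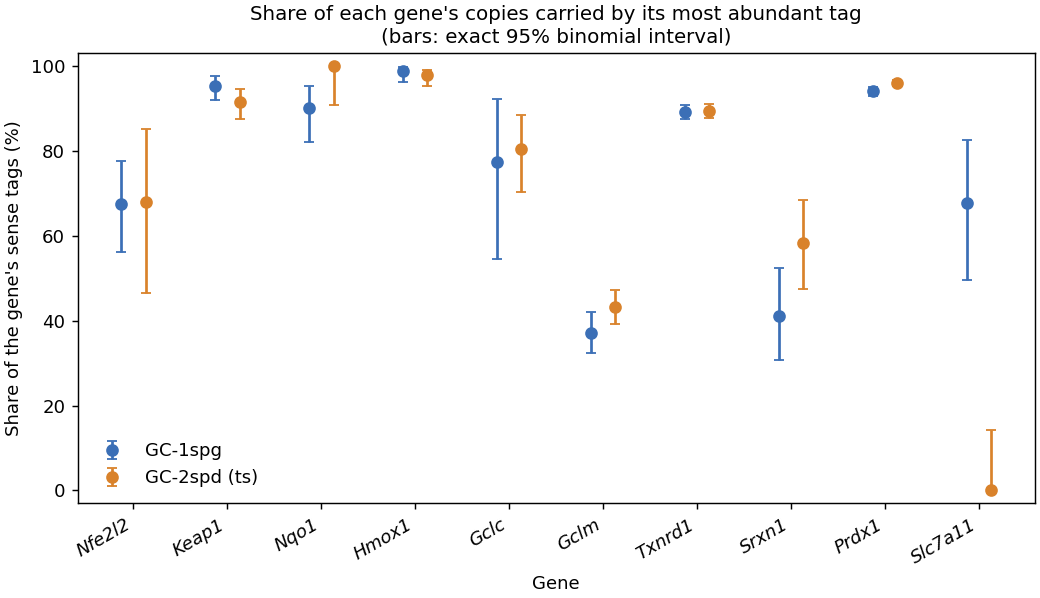
Share of each gene's sense tags, in percent, carried by its most abundant tag in GC-1spg (blue) and GC-2spd (ts) (orange), with exact 95% binomial bars. *Slc7a11* lies at 67.65% and 0, with different tags listed at its last site, while the shares of *Txnrd1* are 89.2% and 89.5%.

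The antioxidant response element was searched as TGACNNNGC on both strands of the RefSeq promoter windows of GRCm38.p6, which run from 250 bases before to 50 after a transcript start. Windows were held for 8 of the 10 genes, all but *Hmox1* and *Gclc*. These genes had 10 windows, with *Txnrd1* alone holding more than 1. Of the 10 windows 5, each of a different gene, held the letters, as did 12.4% of all 32851 windows. Most of the genes were listed as known targets of Nrf2, so these shares are not an independent comparison. The 5 stretches are printed on the strand of the gene, with the match in capitals, to show the letters found. All but that of *Nfe2l2* read TGACNNNGC on the opposite strand.
*Nfe2l2*, chr2:75704885-75704913: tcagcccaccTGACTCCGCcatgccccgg
*Gclm*, chr3:122245413-122245441: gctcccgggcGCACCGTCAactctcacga
*Txnrd1*, chr10:82859104-82859132: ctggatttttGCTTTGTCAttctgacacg
*Srxn1*, chr2:152105542-152105570: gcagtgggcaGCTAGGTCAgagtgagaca
*Prdx1*, chr4:116685456-116685484: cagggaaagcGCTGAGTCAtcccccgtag
The match of *Prdx1* also holds TGACTCA, the letters of an AP-1 site. *Nfe2l2*, *Gclm*, *Txnrd1*, *Srxn1* and *Prdx1*, which hold the letters, had log2 ratios of -1.58, 0.67, -0.10, 0.20 and 0.61, so genes with a match lay on both sides of 0. A match is no evidence of binding, and elements outside the windows were not searched.

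Of 81 other genes of the pathway in 9 lists, 72 were listed, and 9 were called higher and 13 lower in GC-2spd (ts). These are 12.5% and 18.1% of the 72, beside 11.7% higher and 7.84% lower among all genes. The same shares of all genes stand beside the counts of each list. They include genes with fewer than 10 tags over both libraries, of which none was called. Without those genes both shares would be larger, and they were not worked out by direction, so small differences from them carry no weight. Over both directions 19.5% of all genes were called, and 24.9% of the 11298 genes with at least 10 tags. With a BCV of 0.2, 10 of the 22 calls were lost, those of *Dpp3*, *Maff*, *Glrx*, *Gpx8*, *Nqo2*, *Prdx5*, *Sod2*, *Sod3*, *Txnip* and *Fth1*. The median log2 ratio of the 72, with 0.5 tags added to both counts, was -0.13, beside 0.13 over all genes. Folds given as at least a value are set against a floor of 3 counts in the library with no listed tag. Single copy tags had been removed, so an unlisted gene may have had copies that this floor does not cover. These folds are therefore not strict lower bounds. A gene may also be unlisted because its tags differ from the reference by more than 1 base or within CATG, or match other genes too, which was not tested. Among called genes with 0 tags in 1 library, *Gpx7*, *Gsta3* and *Abcc3* rested on 1 distinct tag each and *Blvra* on 2. *Nfe2l3* rested on 4 and *Aldh3a1* on 6.

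Regulators and partners of Nrf2 gave 14 listed genes, 1 called higher (7.14%, beside 11.7% of all genes) and 3 lower (21.4%, beside 7.84%). *Nfe2l3*, which encodes the related factor Nrf3, went from 283 tags to 0, at least 87.9-fold lower. *Maff*, a small Maf partner, was lower with 100 and 29 tags, a log2 ratio of -1.68 (-2.33 to -1.08). *Bach2*, a repressor that binds the same elements with small Maf proteins, was higher with 5 and 60 tags, a log2 ratio of 3.69 (2.38 to 5.36). *Dpp3*, a peptidase that binds Keap1, was lower with 818 and 322 tags. *Sqstm1*, the autophagy receptor p62, had the most tags of the list over both libraries, 1569 and 2438, and was not called at a log2 ratio of 0.74 (0.65 to 0.83). *Rbx1*, a subunit of the ubiquitin ligase that Keap1 serves, had 1674 and 932 tags and was not called either.

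Peroxide and superoxide enzymes were called in both directions. *Prdx2*, a cytosolic peroxiredoxin, was higher in GC-2spd (ts) with 566 and 2791 tags at a log2 ratio of 2.40 (2.27 to 2.54), and *Prdx4*, which works in the endoplasmic reticulum, with 183 and 655 tags, 1.94 (1.70 to 2.19). *Prdx5*, found in mitochondria and peroxisomes, was lower with 1037 and 352 tags, -1.46 (-1.64 to -1.28). Of the 12 thioredoxin and peroxiredoxin genes 3 were called higher (25.0%, beside 11.7% of all genes) and 1 lower (8.33%, beside 7.84%). The remaining call was *Txnip*, which binds thioredoxin, higher with 159 and 332 tags and not called under TMM. *Txn1*, thioredoxin itself, had 4886 and 4074 tags and was not called. Mitochondrial *Sod2*, with 1797 and 679 tags, and extracellular *Sod3*, with 112 and 25, were called lower, while *Sod1*, the cytosolic enzyme, had 2010 and 2522 tags and was not called. With only the CATG site nearest the 3′ end, *Sod3* was no longer called.

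Of 10 listed genes of glutathione synthesis and use, *Gpx7* and *Gpx8*, peroxidases of the endoplasmic reticulum, were called higher and *Glrx*, a glutaredoxin, lower. *Gpx7* had 0 and 62 tags (at least 22.2-fold higher), and *Gpx8* had 382 and 812, with a ratio of 1.19 (1.01 to 1.37) on the log2 scale. The counts of *Glrx* were 189 and 81, and its log2 ratio was -1.12 (-1.51 to -0.74). *Gss*, glutathione synthetase, had 53 and 23 tags at a log2 ratio of -1.10 (-1.88 to -0.37), but missed the call with an FDR of 4.32e-03 by the Audic-Claverie test.

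In the list of quinone, carbonyl and epoxide reduction, *Nqo2*, the relative of *Nqo1*, was called higher with 49 and 115 tags, a log2 ratio of 1.33 (0.84 to 1.85), opposite in direction to *Nqo1*. *Ptgr1*, a reductase of unsaturated aldehydes and ketones, was higher with 28 and 245 tags, 3.23 (2.66 to 3.85), but was no longer called with only the CATG site nearest the 3′ end. *Aldh3a1*, an aldehyde dehydrogenase, had 273 and 0 tags, at least 84.8-fold lower. The most abundant gene of the 11, *Akr1b8*, an aldo-keto reductase, had 1275 and 1494 tags and was not called.

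None of the 6 genes that supply NADPH was called, but *Pgd*, of the pentose phosphate pathway, had 498 and 233 tags at a log2 ratio of -0.99, just inside the threshold, and was called lower under 6 of 15 alternatives. *Me1*, malic enzyme, lay as close to the threshold in the other direction, with 373 and 687 tags at a log2 ratio of 0.98, and was called under none of them. *Taldo1*, transaldolase, had the most tags of that list, 1311 and 1159. Downstream of *Hmox1*, *Blvra*, which turns biliverdin into bilirubin, went from 0 to 161 tags (at least 57.6-fold higher), and *Fth1*, the ferritin heavy chain, was lower with 10344 and 3097, its log2 ratio being -1.64 (-1.70 to -1.58). Those were the only calls among the 5 listed genes of heme breakdown and iron storage.

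Glutathione transferases known as Nrf2 targets gave 3 lower calls among 6 listed genes, beside 7.84% of all genes, and 0 higher ones, beside 11.7%. *Mgst1*, a microsomal transferase, had 1682 and 206 tags at a log2 ratio of -2.93 (-3.14 to -2.72), *Gsta4* had 277 and 15, -4.11 (-4.96 to -3.36), and *Gsta3* had 35 and 0, at least 10.9-fold lower. The call of *Gsta3* was lost with only the CATG site nearest the 3′ end. Among 4 listed exporters of conjugates, *Abcc3* was called lower with 38 and 0 tags, at least 11.8-fold, and *Abcc1* had the most tags over both libraries, 433 and 248, and was not called. *Abcc5* had 150 and 278 tags at a log2 ratio of 0.99 and was called higher under 2 of 15 alternatives.

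**Figure D4:**
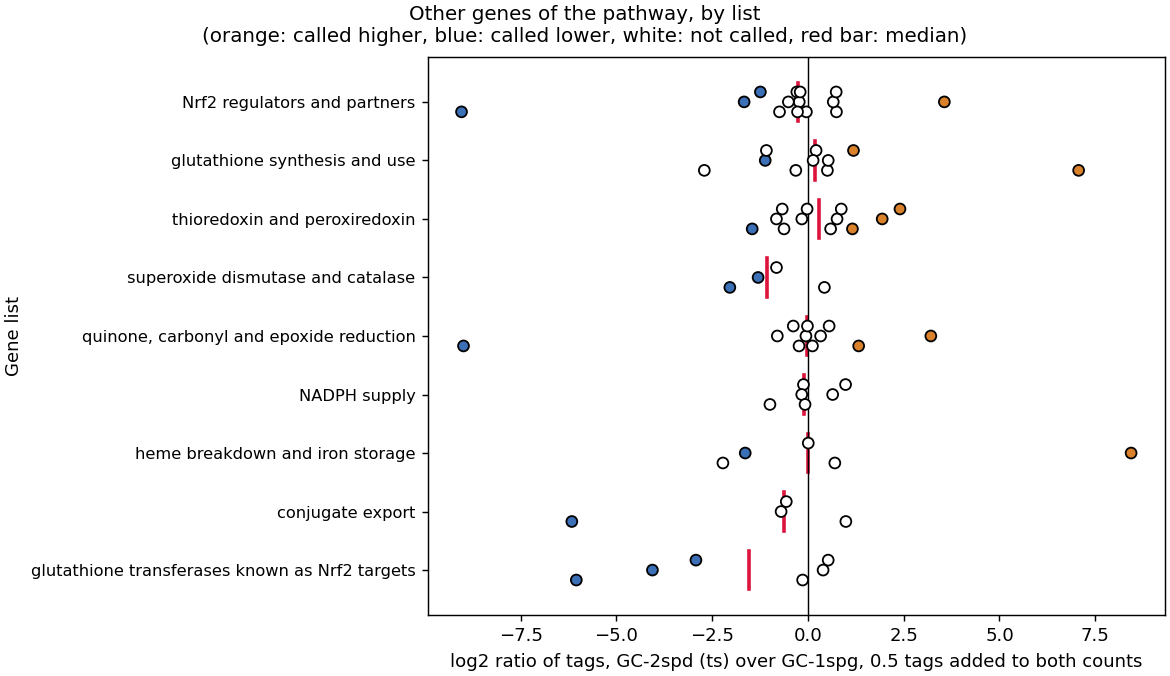
log2 ratio of tags, GC-2spd (ts) over GC-1spg with 0.5 tags added to both counts, for each listed gene of the 9 other lists (orange, called higher; blue, called lower; white, not called; red bar, median of the list). The glutathione transferases have a median of -1.53 and the superoxide dismutases with catalase -1.06, while the thioredoxin and peroxiredoxin genes have 0.28.

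By the labels both lines come from male germ cells. However, 13 of 14 germ cell markers, *Ddx4*, *Dazl* and *Sycp3* among them, had no listed tag in either library. *Uchl1* alone was listed, with 329 and 66 tags. Fibroblast markers were listed for 7 of 9 genes and summed to 2733 and 1432 TPM, but to 670.1 and 919.2 TPM without *Col1a1*. Of these markers *Col1a1*, *Col6a1* and *Dcn* had lower calls, while *Vim* and *Col3a1* had higher ones. Sertoli cell markers summed to 318.0 and 97.3 TPM, or 140.2 and 41.9 TPM without *Clu*. Of 9 genes 7 were listed for GC-1spg and 4 for GC-2spd (ts). In GC-2spd (ts) *Wt1*, *Dhh* and *Amh* were at 0, beside 620, 24 and 5 tags in GC-1spg, and *Amh* was not called. *Clu* was called lower in GC-2spd (ts), and *Gata4* was called higher with 29 and 138 tags. *Sox9*, with 29 and 46 tags, and *Inha*, with 4 and 14, were not called. Markers of peritubular myoid cells summed to 13.01 and 122.3 TPM, or 3.15 and 4.87 TPM without *Acta2*, and those of Leydig cells to 0.789 and 1.06 TPM. The part of these differences in the results on Nrf2 genes was not tested.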

How the data were processed

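The 2 libraries, 1 per line, hold DGE tags of NlaIII-cut cDNA. The authors removed adaptor tags, tags of low quality and single copy tags, and deposited, for each distinct tag, the count of its copies and a TPM value (copies per 1000000 clean tags, rounded to 2 decimals). No count was below 2. The counts alone were used here, and TPM was recomputed from them. The total of clean tags was 5072149 and 4726808.

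CATG+17 tags were taken from 141767 transcripts of GENCODE M21 (GRCm38), on both strands. The UniGene clusters of the study were not used here. Exact matches were taken first, then those with 1 mismatch after CATG, and a tag counted when it belonged to 1 gene. The Audic-Claverie test was adjusted by Benjamini-Hochberg over 14450 genes, a library at 0 being set to 0.01 TPM in the ratio. The quasi-likelihood test of edgeR could not be fitted without replicates. Intervals are exact Poisson, Clopper-Pearson or conditional binomial at 95%, and PCR copies of a molecule are not independent.

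The genes, lists and tests were chosen with earlier results of these data known. Named genes are the 10 genes, every called gene of a list and the most abundant gene of each list; *Pgd*, *Me1*, *Gss*, *Rbx1*, *Abcc5*, *Slc3a2* and the cell type markers named fall outside this rule and were chosen after their values were seen. The alternatives were exact matching, sense matches preferred, no pseudogene transcripts, protein coding transcripts only, the last CATG site only, both strands summed, TMM, DESeq2 size factors, the total of unambiguous sense tags, a minimum of 10 tags, 0.5 added tags, an exact binomial test, and the exact test of edgeR at a BCV set to 0.1, 0.2 or 0.4. Software was R 4.3.3 with edgeR 4.0.16 and DESeq2 1.42.0, and Python 3.11.15 with scipy 1.17.1, numpy 2.4.6 and pandas 2.3.3.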

Additional observations from a re-analysis of the deposited data

Results flagged for a closer look

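Tags on the antisense strand of the 10 genes were left out of the sense counts and entered only the alternative with both strands summed. They were above the floor of 3 counts set for an unlisted gene, except for *Slc7a11*. Values are given for GC-1spg and then GC-2spd (ts). *Txnrd1* had the most, with 194 and 175 antisense tags. *Nfe2l2* had 46 and 28, more in GC-2spd (ts) than its 25 sense tags. *Keap1* had 36 and 71, and *Prdx1* had 48 and 37. *Hmox1* had 42 and 43, *Nqo1* had 31 and 31, and *Gclm* had 24 and 51. *Srxn1* had 25 and 8, and *Gclc* had 6 and 13. *Slc7a11*, with 2 and 2, stayed below this floor.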

How the results depend on the processing

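Each of the 10 log2 ratios was recomputed under 15 alternatives. Of these 150 values, 135 kept their direction and their side of the call, 9 lost a call and 6 changed sign. The sign changed for *Keap1* (-0.04 under TMM, -0.03 under DESeq2 size factors), *Srxn1* (-0.05 with both strands), *Prdx1* (-0.36 with the last CATG site only) and *Slc7a11* (1.23 with exact matches, 0.19 with sense matches preferred), none of which was called. The number of the 10 genes called lower went from 2 to 1 with protein coding transcripts, with both strands summed and with a BCV of 0.1, and to 0 with a BCV of 0.2 or 0.4, which also left 0 called higher. Over all genes, 1684 higher and 1133 lower calls became 511 and 489 with a BCV of 0.2 and 108 and 136 with a BCV of 0.4. In the 9 lists, 13 lower calls became 6 and 2 with a BCV of 0.2 and 0.4, and 9 higher calls became 6 and 2. A single library per line gives no estimate of the BCV. For site use, 1 gene in place of 2 passed with exact matches, with sense matches preferred, and with variants counted at their reference site, the last chosen after seeing the data. The change in share of the main tag turned for *Txnrd1* (-0.05 and -0.08 percentage points with exact matches and with variants at their site) and for *Slc7a11* (10.34 with sense matches preferred). No paired analysis was possible because each line has 1 library. All 2817 calls were of genes with at least 10 tags over both libraries.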

Other observations

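The variant tag of *Slc7a11* was not alone. Over all genes, 321 tags with 1 mismatch to a single gene had at least 10 copies in 1 library and 0 in the other. GC-1spg held 246 of them and GC-2spd (ts) the other 75. For 134 of these, in 133 genes, the exact reference tag had at least 10 copies in the other library and 0 in the library with the variant. In all 134 cases the variant was the GC-1spg tag, and GC-2spd (ts) had 0 such variants. *Slc7a11* was the only gene of the 10 among them.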
